A study of Homo sapiens with 24 samples.

Results

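Collagen and laminin chain genes were examined in RNA-seq of HEK293T cells, a human embryonic kidney line. Members were all genes whose symbol has the form of a collagen chain (COL, a number, A and a number) or of a laminin chain (LAM, then A, B or C, and a number). This gave 56 genes, 44 collagen and 12 laminin, of the 58884 genes listed in each of the 2 deposited expression tables. The first table holds 2 libraries of wild type (WT) cells and 2 of KO cells, in which both alleles of SETD2 are disrupted. SETD2 is the methyltransferase that trimethylates histone H3 at lysine 36. The second table holds 2 libraries of KO cells, 2 of KO cells rescued with full-length SETD2 (SETD2 FL) and 2 of KO cells rescued with SETD2 C, a fragment of residues 1404 to 2564 that lacks the N-terminal segment. Both constructs were expressed from a CMV promoter after transient transfection. The labels call the WT and KO libraries untreated. Transfection and SETD2 expression thus cannot be told apart where SETD2 FL or SETD2 C is compared with KO. Between SETD2 FL and SETD2 C, both groups were transfected. Nothing in the labels says that libraries of a group came from separate cultures, so the p-values measure only the spread between these libraries.

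Collagens are trimers of chains with long Gly-X-Y repeats, and each chain is encoded by its own gene. Fibrillar collagens form the tensile fibrils of connective tissue, type IV collagens form the network of basement membranes, and the other classes bind to fibrils, anchor epithelia or sit in the plasma membrane. Laminins are trimers of 1 alpha, 1 beta and 1 gamma chain and are the other main polymer of basement membranes. In kidney epithelium, laminin and type IV collagen are the scaffold on which cells rest. All chains pass through the endoplasmic reticulum, where collagen chains are hydroxylated and folded before secretion.

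The promoter windows of the 3 members that were called between SETD2 C and KO cells are shown first, because the results below turn on these genes, together with that of COL4A1. Each window runs from 250 bases before the RefSeq start site to 50 after it (GRCh38.p14), and is printed 5′ to 3′ on the strand of the gene, here the minus strand for all 4. LAMB3 lies at chr1:209652376-209652675, COL16A1 at chr1:31703968-31704267, COL7A1 at chr3:48595280-48595579 and COL4A1 at chr13:110307108-110307407. Capitals mark any match to ACGTG or GCGTG, searched on both strands.
LAMB3: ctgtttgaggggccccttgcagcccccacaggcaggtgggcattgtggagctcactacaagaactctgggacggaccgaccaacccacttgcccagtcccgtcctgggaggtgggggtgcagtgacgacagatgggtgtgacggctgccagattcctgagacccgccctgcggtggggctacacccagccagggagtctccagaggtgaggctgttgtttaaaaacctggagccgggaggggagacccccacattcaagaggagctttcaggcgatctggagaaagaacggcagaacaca
COL16A1: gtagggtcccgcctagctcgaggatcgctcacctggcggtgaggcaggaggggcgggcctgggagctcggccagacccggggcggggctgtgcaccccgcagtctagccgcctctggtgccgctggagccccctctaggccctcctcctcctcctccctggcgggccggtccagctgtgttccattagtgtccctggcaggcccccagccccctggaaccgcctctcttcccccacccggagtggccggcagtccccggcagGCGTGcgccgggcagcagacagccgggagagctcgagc
COL7A1: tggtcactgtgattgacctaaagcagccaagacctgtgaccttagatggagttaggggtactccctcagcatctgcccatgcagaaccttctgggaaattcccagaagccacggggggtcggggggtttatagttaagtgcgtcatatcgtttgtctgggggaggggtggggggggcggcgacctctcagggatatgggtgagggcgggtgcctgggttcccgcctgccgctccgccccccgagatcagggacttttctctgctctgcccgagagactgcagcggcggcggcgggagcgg
COL4A1: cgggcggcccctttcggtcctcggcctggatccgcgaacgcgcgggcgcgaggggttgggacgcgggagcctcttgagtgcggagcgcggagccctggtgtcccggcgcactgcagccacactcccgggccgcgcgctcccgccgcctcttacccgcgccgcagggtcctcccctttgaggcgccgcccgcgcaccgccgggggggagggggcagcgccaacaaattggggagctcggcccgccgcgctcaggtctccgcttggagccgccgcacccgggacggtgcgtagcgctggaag
A single match, GCGTG in the COL16A1 window, was found in these 4 windows. The reference table held a window for 41 of the 56 members. ACGTG was present in 14.6% of the members' windows and in 21.4% of all 35116 windows, and GCGTG in 36.6% and 36.5%. The COL4A1 window is shown because it is shared. COL4A1 and COL4A2, whose products join in one trimer, are transcribed in opposite directions from start sites 127 bases apart on chromosome 13, and their windows have 226 bases in common. COL4A4 and COL4A3 on chromosome 2 start 419 bases apart, and COL4A6 and COL4A5 on chromosome X start 380 bases apart.

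The targeted gene was checked first. SETD2 (ENSG00000181555) had a TPM (a level scaled for transcript length and library total) of 12.62 and 14.82 in the WT libraries and 16.19 and 16.31 in the libraries labelled KO of the first table. The transcript did not fall with the label KO (log2 fold change 0.11 ± 0.08 SE, adjusted p = 0.408 from limma), so the transcript gives no check of the label KO, and the directions given for KO against WT follow the labels. The second table listed SETD2 at 11.99 and 12.15 for KO cells, at 439 and 422 where SETD2 FL was expressed, and at 1329 and 1264 where SETD2 C was. The 9 markers used for the HEK293 line, among them VIM, KRT8, KRT18, NEFM, NEFL and PAX2, were at or above 0.5 TPM in all 10 libraries, with sums of 759 to 1671. Among 5 endothelial markers none reached 0.5 TPM in any library. The depth of the libraries is unknown, because the tables give TPM and no counts. All fold changes below are on the scale of log2(scaled TPM + 0.5), which understates changes of low genes, and a call needed a 2-fold change or more together with an adjusted p of 0.05 or less.

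Laminin chains and a few basement membrane and beaded filament collagens made up most of the matrix transcripts. LAMC1, the gamma chain of most laminins, had a TPM of 64.42 to 77.26 in the first table and 48.97 to 57.41 in the second. LAMB2 ranged from 48.33 to 68.44 and from 52.22 to 71.75, and LAMB1 from 37.70 to 46.89 and from 47.67 to 57.37. These 3 partner chains lay above every laminin alpha chain in each library. LAMA5 was the highest alpha chain, at 12.72 to 19.93 and 22.95 to 26.63 TPM. LAMA1, LAMA3 and LAMA4 lay between 7.12 and 12.35 in the first table and between 7.92 and 15.50 in the second. LAMA2, the alpha chain of muscle laminin, did not exceed 0.2 TPM in any library. LAMC3 was at 2.00 to 4.36, and LAMB3, a beta chain that joins LAMA3 in the laminin of epithelial anchoring complexes, stayed at or below 0.62 TPM in every library without SETD2 C.

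Several collagens were listed without a partner chain. COL1A1, the main chain of type I collagen, had a TPM of 6.43 to 12.06 while COL1A2 did not exceed 0.01 in any of the 10 libraries. COL6A1 and COL6A2 lay at 26.70 to 48.96 and 13.41 to 31.52, and COL6A3, the large remaining chain of the usual type VI trimer, at 0.04 to 0.28. COL9A3 and COL9A2 lay at 10.18 to 32.13 and 1.26 to 4.70, with COL9A1 at 0.04 to 0.28. Every group of libraries showed these gaps. In type IV collagen, COL4A2 (23.28 to 31.69) exceeded its divergent neighbour COL4A1 (10.72 to 19.66) in every library, COL4A5 and COL4A6 lay between 3.16 and 10.83, and COL4A3 and COL4A4 did not exceed 0.55. COL18A1 (9.13 to 18.65), whose product carries endostatin, and COL13A1 (7.54 to 12.88), a transmembrane collagen, completed the members with a mean of at least 5 TPM in both tables together with COL27A1 (5.54 to 12.80), a fibrillar collagen. COL25A1, another transmembrane collagen, reached 7.59. The cartilage and bone chains COL10A1 and COL2A1 and the short-chain collagens COL8A1 and COL8A2 stayed below 0.7 TPM. Neighbouring levels such as LAMC1 and LAMB2, or COL6A2 and COL4A2, overlapped between libraries of the second table, so their order is not fixed.

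**Figure D1:**
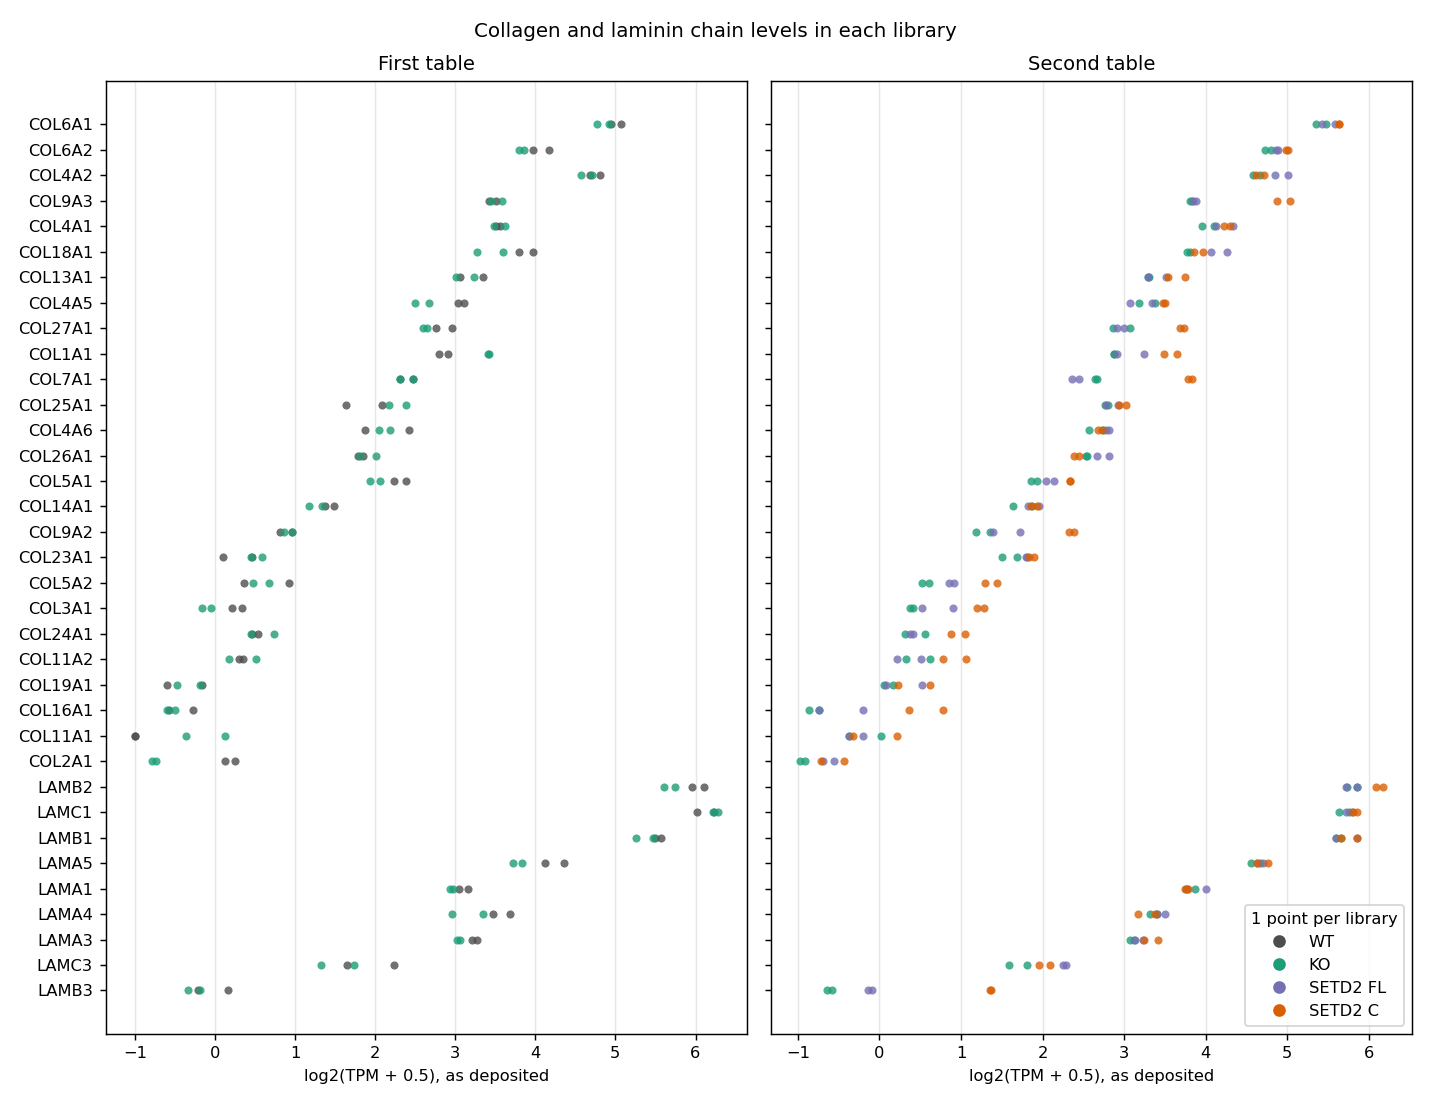
Level of collagen and laminin genes that passed the filter in either table, as log2(TPM + 0.5) on the horizontal axis, with 1 point per library and colours for WT, KO, SETD2 FL and SETD2 C. LAMB2, LAMC1 and LAMB1 lie highest, and in the second table the SETD2 C points of LAMB3, COL7A1, COL9A3 and COL16A1 lie to the right of all KO and SETD2 FL points.

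For a test, 2 or more libraries of a table had to reach 0.5 TPM. This was met by 31 of the 56 members in the first table and 35 in the second, 30 of them in both, while 20 passed in neither. COL2A1 and COL3A1 passed in the first table only through the WT libraries, and 3 members, COL16A1 and LAMB3 among them, passed in the second only through the SETD2 C libraries. Such a gene was bound to differ in that direction. The members tested in the second table had long transcripts with many exons, with medians of 6531 bases and 48 exons against 2891 bases and 7 exons for all genes tested, and a median GC content of 59.5% against 48.7%. Of the antisense transcripts named for members, none exceeded 0.01 TPM. The pseudogenes COL6A4P1 and COL6A4P2 were listed at 0.32 to 1.39 TPM and were not tested.

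To see what loss of SETD2 does to these genes, KO was compared with WT. Most matrix chains were slightly lower in KO libraries, but no member passed both limits. The median log2 fold change of the 31 members tested was -0.28, against -0.01 for all 14746 genes tested, and 27 of the 31 were below 0. When any gene above 0 TPM in at least 2 libraries was tested the median was -0.07, and without scaling it was -0.15, where that of all genes was 0.11. No member was called higher, where 0.339% of all genes were, and none was called lower, where 1.02% were. By the adjusted p alone no member was higher (1.32% of all genes) and 1 was lower (3.17%). On scaled values both KO libraries lay below both WT libraries for 18 members and above them for 2, shares to be read against 29.4% and 27.4% of all genes.

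COL18A1 was the member that passed the adjusted p alone. It had a TPM of 13.45 and 15.15 in WT and 11.57 and 9.13 in KO, so the groups did not overlap (log2 fold change -0.58 ± 0.12 SE, adjusted p = 0.0471 from limma). COL18A1 no longer passed without the first WT library or without the second KO library. With the genes tested kept as with all libraries, it missed the limit whichever of the 4 libraries was left out. Without scaling its adjusted p was 0.137 from limma. COL2A1, the chain of cartilage collagen, stood at 0.69 and 0.59 in WT and 0.08 and 0.10 in KO (log2 fold change -0.999 ± 0.21 SE, adjusted p = 0.0512). Its levels did not overlap, but the value lies at both limits and the gene passed the filter only through the WT libraries. COL1A1 had the largest difference in the other direction, with 6.43 and 7.03 in WT and 10.11 and 10.23 in KO (log2 fold change 0.44 ± 0.09 SE, adjusted p = 0.0537). These 2 fibrillar genes just missed the limit on the adjusted p.

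Among laminins all 4 alpha chains tested were lower in KO by sign, with a median log2 fold change of -0.44 and no adjusted p at or below the limit. LAMA5 had a TPM of 19.93 and 16.87 in WT and 13.77 and 12.72 in KO (log2 fold change -0.58, adjusted p = 0.0825 from limma), and LAMA4 had 10.56 and 12.35 against 7.26 and 9.67 (-0.55, adjusted p = 0.0813). LAMB2 had 68.44 and 61.32 against 53.30 and 48.33 (-0.48, adjusted p = 0.0905). LAMC1 did not share this direction, with 64.42 and 74.57 in WT and 77.26 and 73.99 in KO, and a 95% interval of the log2 fold change from -0.17 to 0.16. The 4 type IV chains tested were all below 0, led by COL4A5 at 8.10 and 7.66 in WT and 5.87 and 5.17 in KO (-0.60, adjusted p = 0.0566), and COL6A2 was at -0.37 (adjusted p = 0.0563). The median was nearer to 0 in the members under 2 TPM, where the scale understates changes, and alike in the ranges above. For members with a mean of at least 10 TPM the median was -0.29 and all 10 were below 0, against a median of 0.02 and 45.6% below 0 for all genes at that level, for the 14 members from 2 to under 10 TPM it was -0.28 against -0.03, and for the 7 members under 2 TPM it was -0.07 against -0.08.

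**Figure D2:**
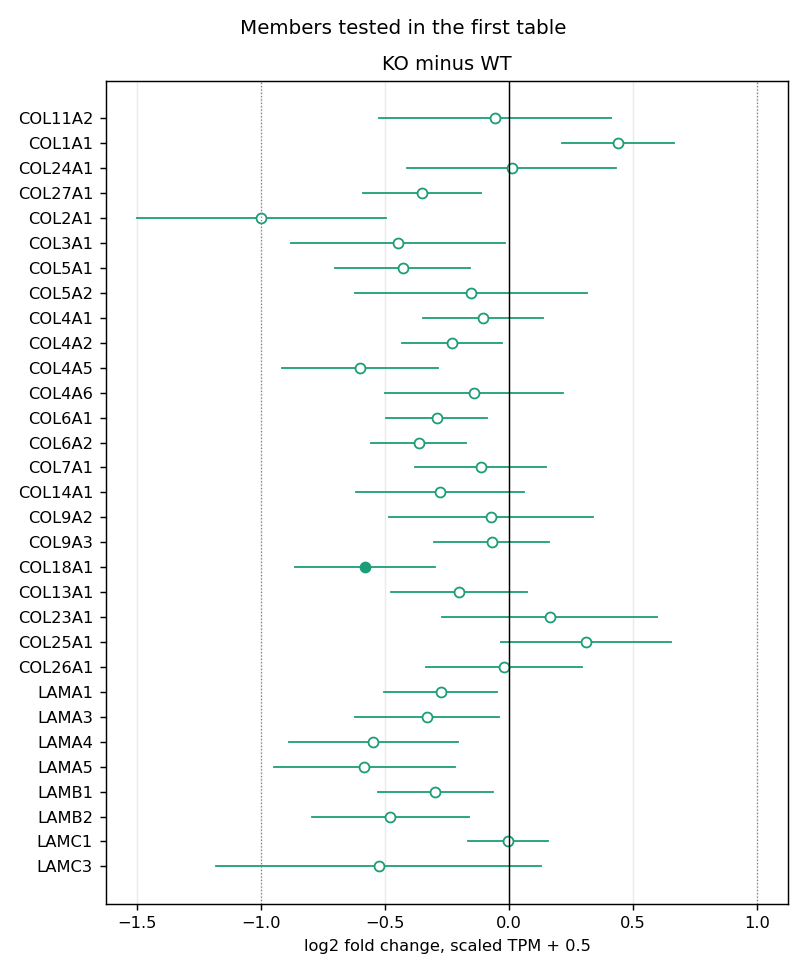
Log2 fold change (KO minus WT) on the horizontal axis for the 31 members tested in the first table, with bars for the 95% interval, dotted lines at a 2-fold change and a filled point where the adjusted p is at most 0.05. Of the points 27 lie left of 0, and COL18A1 is the only filled one.

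SETD2 FL was compared with the KO libraries of the second table to ask whether full-length SETD2 restores expression. No collagen or laminin gene changed past either limit. None was called higher or lower, where 0.0753% and 0.00628% of all 15933 genes were, and by the adjusted p alone there was none in either direction, where 0.176% and 0.0314% of all genes passed. An unadjusted p below 0.05 from limma was found for 5 of the 35 members, beside 2535 of all 15933 genes. The median of the members was 0.09 against 0.01 for all genes, with 28 of 35 above 0, and both SETD2 FL libraries lay above both KO libraries for 13 members and below for 1, beside 24.8% and 23.4% of all genes. This median rested on 1 library, since it was 0.01 without the SETD2 FL library of replicate number 3 and 0.18 without that of number 4.

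LAMC3, a gamma chain, was the nearest to the limit, with 2.50 and 2.99 TPM in KO and 4.27 and 4.36 with SETD2 FL (log2 fold change 0.56 ± 0.12 SE, adjusted p = 0.129 from limma). COL18A1 stood at 13.08 and 13.54 in KO and 18.65 and 16.19 with SETD2 FL (0.35, adjusted p = 0.181), and COL4A2 at 23.42 and 24.91 against 31.69 and 28.36 (0.29, adjusted p = 0.198). None of these groups overlapped. COL7A1, the chain of the anchoring fibrils of skin, went the other way, from 5.75 and 5.86 to 4.93 and 4.63 (-0.28, adjusted p = 0.218). For the abundant laminins the intervals were narrow. They ran from -0.12 to 0.21 for LAMC1, from -0.21 to 0.16 for LAMB2 and from -0.18 to 0.32 for LAMB1 on the log2 scale.

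Of the 30 members tested in both tables, 26 were lower in KO than in WT by sign in the first table. In the second, 21 of these 26 were higher with SETD2 FL than in KO by sign. Of all 35 members tested there, 28 were above 0 in that comparison, with no regard to the first table. For SETD2 C against KO, 17 of the same 26 members were higher by sign, beside 26 of the 35. Whether members lower in KO rose more often than other genes was not tested. The KO libraries of the tables are different samples, the tables were made separately, and no test joins them. COL1A1, which was higher in KO than in WT, stood at 6.83 and 6.86 in KO cells of the second table, close to the WT values of the first, so its level in KO cells differed between the tables by as much as between the groups.

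**Figure D3:**
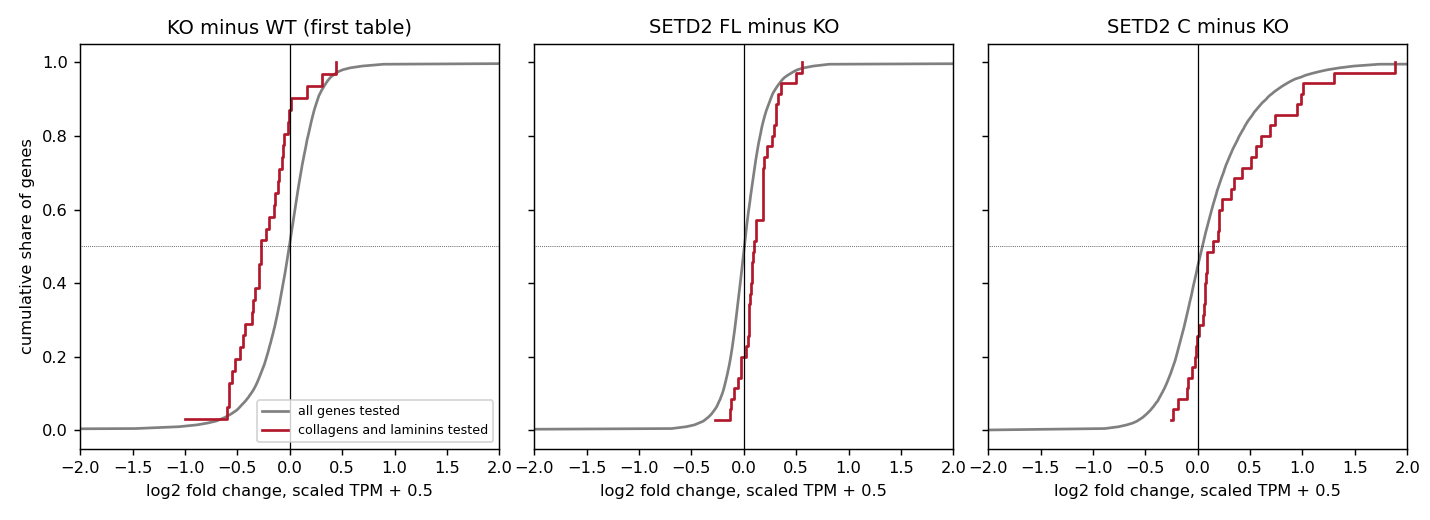
Cumulative share of genes (vertical axis) by log2 fold change (horizontal axis, drawn from -2 to 2) for all genes tested, in grey, and for the collagens and laminins tested, in red, in 3 comparisons. The members lie left of all genes between KO and WT, with medians of -0.28 and -0.01, and right of them with SETD2 C, with medians of 0.15 and 0.05.

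SETD2 C was compared with the same KO libraries. Past both limits 3 of 35 members, LAMB3, COL16A1 and COL7A1, were called higher and none lower, where 3.75% of all genes were called higher and 0.314% lower. LAMB3 and COL16A1 passed the filter only through the SETD2 C libraries and so had to be higher there, which leaves COL7A1 as the call that the filter did not fix. By the adjusted p alone 9 members were higher, LAMB3 and COL16A1 among them, and none lower, beside 21.1% and 15.1% of all genes. The members that passed were fibrillar, fibril-associated and anchoring collagens and 1 laminin chain, while no type IV chain and no laminin alpha chain passed. On scaled values both SETD2 C libraries lay above both KO libraries for 18 members and below for 4, beside 40.5% and 30.8% of all genes.

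LAMB3, the beta chain of epithelial anchoring laminin, is given as a description, since the filter fixed its direction. The KO libraries had 0.17 and 0.14 TPM, those with SETD2 FL 0.44 and 0.41, and those expressing SETD2 C 2.08 and 2.05, with no overlap between any of the groups (log2 fold change of SETD2 C against KO 1.88 ± 0.17 SE). LAMA3, an alpha chain of the same trimer, did not pass, and went from 7.92 and 8.21 in KO to 8.98 and 10.13 (0.09, with a 95% interval from -0.13 to 0.31).

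COL7A1 had 5.75 and 5.86 TPM in KO and 13.23 and 13.67 with SETD2 C, and the libraries of each group lay close together (log2 fold change 1.01 ± 0.09 SE, adjusted p = 0.000289 from limma). Its fold change lay at the limit of 2, and ranged from 0.94 to 1.15 on the log2 scale over the settings tried. COL7A1 was not called with a pseudocount of 1 or with quantile normalization. It also lost the call without the KO library of number 2 and without the SETD2 C library of number 2. COL16A1, a fibril-associated collagen whose direction the filter fixed too, went from 0.10 and 0.05 to 1.22 and 0.78 (1.302 ± 0.26 SE). Both SETD2 C libraries were above all others for it, but they differed from each other more than for the other called genes. With 1 of the SETD2 C libraries left out, LAMB3 and COL16A1 drop out of the genes tested. With the genes tested kept as they were, log2 fold changes with 1 of the 4 libraries left out were 1.85 to 1.92 for LAMB3 and 1.09 to 1.51 for COL16A1. The kept filter still rests on both SETD2 C libraries, so these values are no check of either call.

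COL9A3 and COL9A2, chains of the collagen that coats cartilage fibrils, were just under the fold limit. COL9A3 stood at 13.49 and 13.74 TPM in KO and 32.13 and 28.83 with SETD2 C (log2 fold change 0.99 ± 0.08 SE, adjusted p = 0.000145 from limma), and COL9A2 at 2.06 and 1.78 against 4.70 and 4.49 (0.95 ± 0.15 SE, adjusted p = 0.00296). In both genes the SETD2 C libraries lay above all KO and SETD2 FL libraries. Their partner COL9A1 stayed at 0.23 and 0.07 with SETD2 C. Of the 8 fibrillar chains tested all were above 0, with a median of 0.49, and 4 passed the adjusted p alone, beside 55.4% of all genes above 0, their median of 0.05 and 21.1% higher by the adjusted p alone. COL27A1 went from 7.89 and 6.76 to 12.80 and 12.38 (0.60), COL1A1 from 6.83 and 6.86 to 12.06 and 10.73 (0.55), COL5A2 from 0.94 and 1.02 to 2.21 and 1.95 (0.69) and COL3A1 from 0.83 and 0.80 to 1.79 and 1.94 (0.74). None of these 4 genes overlapped between SETD2 C and KO. For COL3A1 the adjusted p of 0.0153 rose to between 0.0514 and 0.0876 when any 1 of the 4 libraries was left out, and for COL5A2 that of 0.00867 rose to 0.0603 without the first SETD2 C library.

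The type IV chains tested and most laminin chains tested stayed close to their KO levels with SETD2 C, while LAMB3 was at 1.88. The 4 type IV chains tested had log2 fold changes from -0.11 to 0.09, with the interval of COL4A1 from -0.15 to 0.33 and that of COL4A2 from -0.31 to 0.10. The 4 laminin alpha chains ranged from -0.23 for LAMA4 to 0.09 for LAMA3, and LAMB1 and LAMC1 were at -0.02 and -0.01. COL6A1 and COL6A2 were at 0.07 and 0.08. LAMB2 had 52.67 and 57.24 TPM in KO and 71.75 and 67.69 with SETD2 C (0.19, adjusted p = 0.0927 from limma). COL26A1 had the lowest value of all members tested, -0.26 (adjusted p = 0.0865). A p that misses the limit does not show that the levels were equal, but COL9A3 aside, the intervals of all members with a mean of at least 10 TPM exclude a 2-fold difference.

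Low genes as a whole were higher with SETD2 C, and the members must be read beside them. The number of genes above 0 TPM was 27104 and 26139 in the SETD2 C libraries and 24306 to 25440 in the KO and SETD2 FL libraries, and 36 members reached 0.5 TPM in each SETD2 C library against 31 or 32 in the others of the table. Genes with a mean under 2 TPM had a median log2 fold change of 0.32 against KO and 8.73% were called higher, and of the 9 members in that range the 2 called were LAMB3 and COL16A1. From 2 to under 10 TPM the medians were 0.11 for all genes and 0.12 for 14 members, of which COL7A1 was called beside 4.27% of all genes. From 10 TPM up they were -0.05 and 0.03, with none of 12 members called beside 1.29%. COL7A1 (1.01) and COL9A3 (0.99) thus lay far above the medians of genes at like level, while the 5 low fibrillar chains ran from 0.06 for COL11A1 over COL11A2 (0.34), COL24A1 (0.42) and COL5A2 (0.69) to 0.74 for COL3A1, in a range where the typical gene was at 0.32. The part of this difference in the members' values was not tested. In bulk samples a change in the make-up of the cells and a change in RNA per cell cannot be told apart. Of the 9 HEK293 line markers, 3 were also called higher, beside 3.75% of all genes. These were KRT8 (1.61), NEFL (1.22) and NEFM (1.203). The 7 fibroblast markers summed to 2.97 and 3.53 TPM with SETD2 C and to 0.96 to 1.76 in the other libraries of the table, and both that were tested were above 0, LUM, which was called higher (1.04), and PDGFRA (0.44, adjusted p = 0.17 from limma). The other 5 did not exceed 0.5 TPM in any library.

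**Figure D4:**
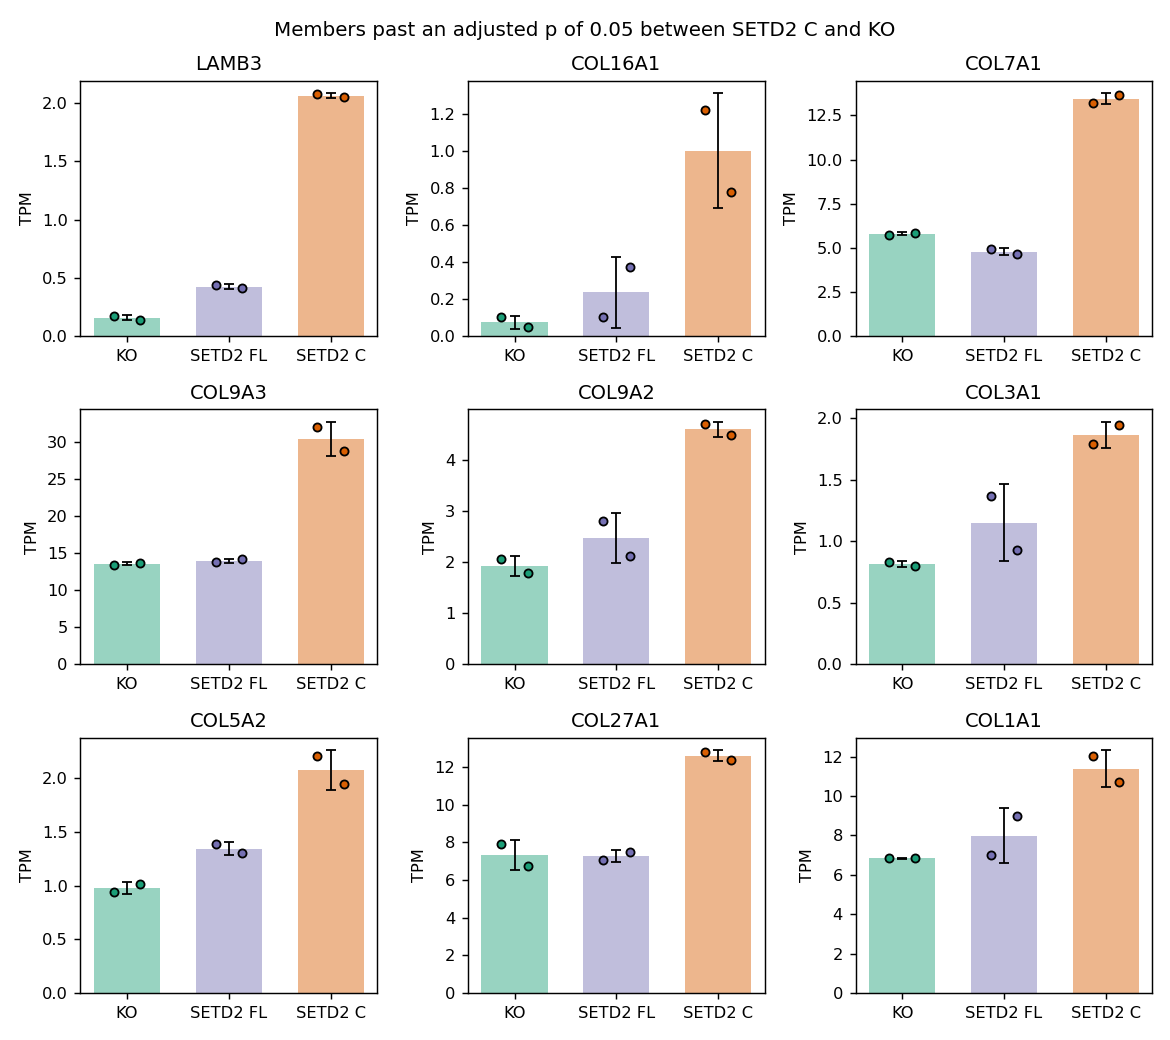
TPM (vertical axis, from 0) of the 9 members past an adjusted p of 0.05 between SETD2 C and KO, with bars for the mean of 2 libraries, error bars for the SD and points for the libraries. In all 9 panels both SETD2 C points lie above both KO points, with LAMB3 at 2.08 and 2.05 against 0.17 and 0.14.

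SETD2 C and SETD2 FL were compared directly to ask how cells with and without the N-terminal segment differ. The groups also differed in the TPM of SETD2, which was 2.75 times as high in SETD2 C libraries (adjusted p = 7.06e-06 from limma). TPM is scaled for transcript length and SETD2 C is the shorter construct, so this need not be the ratio of transcripts. Whether the ratio of transcripts is larger or smaller was not tested. The paper, by contrast, reports no significant difference in mRNA level between the constructs. The segment and the level of SETD2 thus cannot be told apart here. LAMB3 (log2 fold change 1.38 ± 0.17 SE) and COL7A1 (1.28 ± 0.09 SE, adjusted p = 7.85e-05 from limma) were called higher. This is 2 of 35 members beside 3.36% of all genes called higher, and none was called lower beside 0.421%. LAMB3 again passed the filter only through the SETD2 C libraries, which fixed its direction. By the adjusted p alone 7 members were higher, beside 21.4%, and 4 lower, beside 16.8%. The higher ones were LAMB3, COL7A1, COL16A1 (0.97), COL9A3 (0.97), COL9A2 (0.68), COL27A1 (0.63) and COL1A1 (0.37). COL16A1, like LAMB3, passed the filter only through the SETD2 C libraries. The lower ones were COL4A2 and LAMA4, chains of the basement membrane, COL18A1 and COL26A1.

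COL18A1 stood at 18.65 and 16.19 TPM in SETD2 FL libraries, against 15.12 and 14.03 in those of SETD2 C (log2 fold change -0.37 ± 0.10 SE, adjusted p = 0.0194 from limma). COL4A2 stood at 31.69 and 28.36 against 25.74 and 23.97 (-0.39 ± 0.09 SE, adjusted p = 0.0102). In both genes the KO level lay near that with SETD2 C, and the SETD2 FL libraries were the higher ones. COL26A1 stood at 6.55 and 5.84 against 4.74 and 4.93 (-0.44 ± 0.10 SE, adjusted p = 0.0122), and LAMA4 at 10.82 and 10.11 against 9.86 and 8.49 (-0.31 ± 0.10 SE, adjusted p = 0.0467). All 4 lost the adjusted p without the SETD2 FL library of replicate number 3, at 0.0574 to 0.209, as did COL16A1 (0.104) and COL1A1 (0.178). COL7A1, COL9A3, COL9A2 and COL27A1 still passed in that fit, but COL9A2 did not without the SETD2 FL library of number 4 or the first SETD2 C library. LAMB3 passed there too. But LAMB3 and COL16A1 entered the genes tested only through the SETD2 C libraries, so leaving out a SETD2 FL library is no check of either. The median of the members was 0.04, equal to that of all genes, and its sign depended on the libraries, since it was 0.11 without the SETD2 FL library of number 3 and -0.05 without that of number 4.

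**Figure D5:**
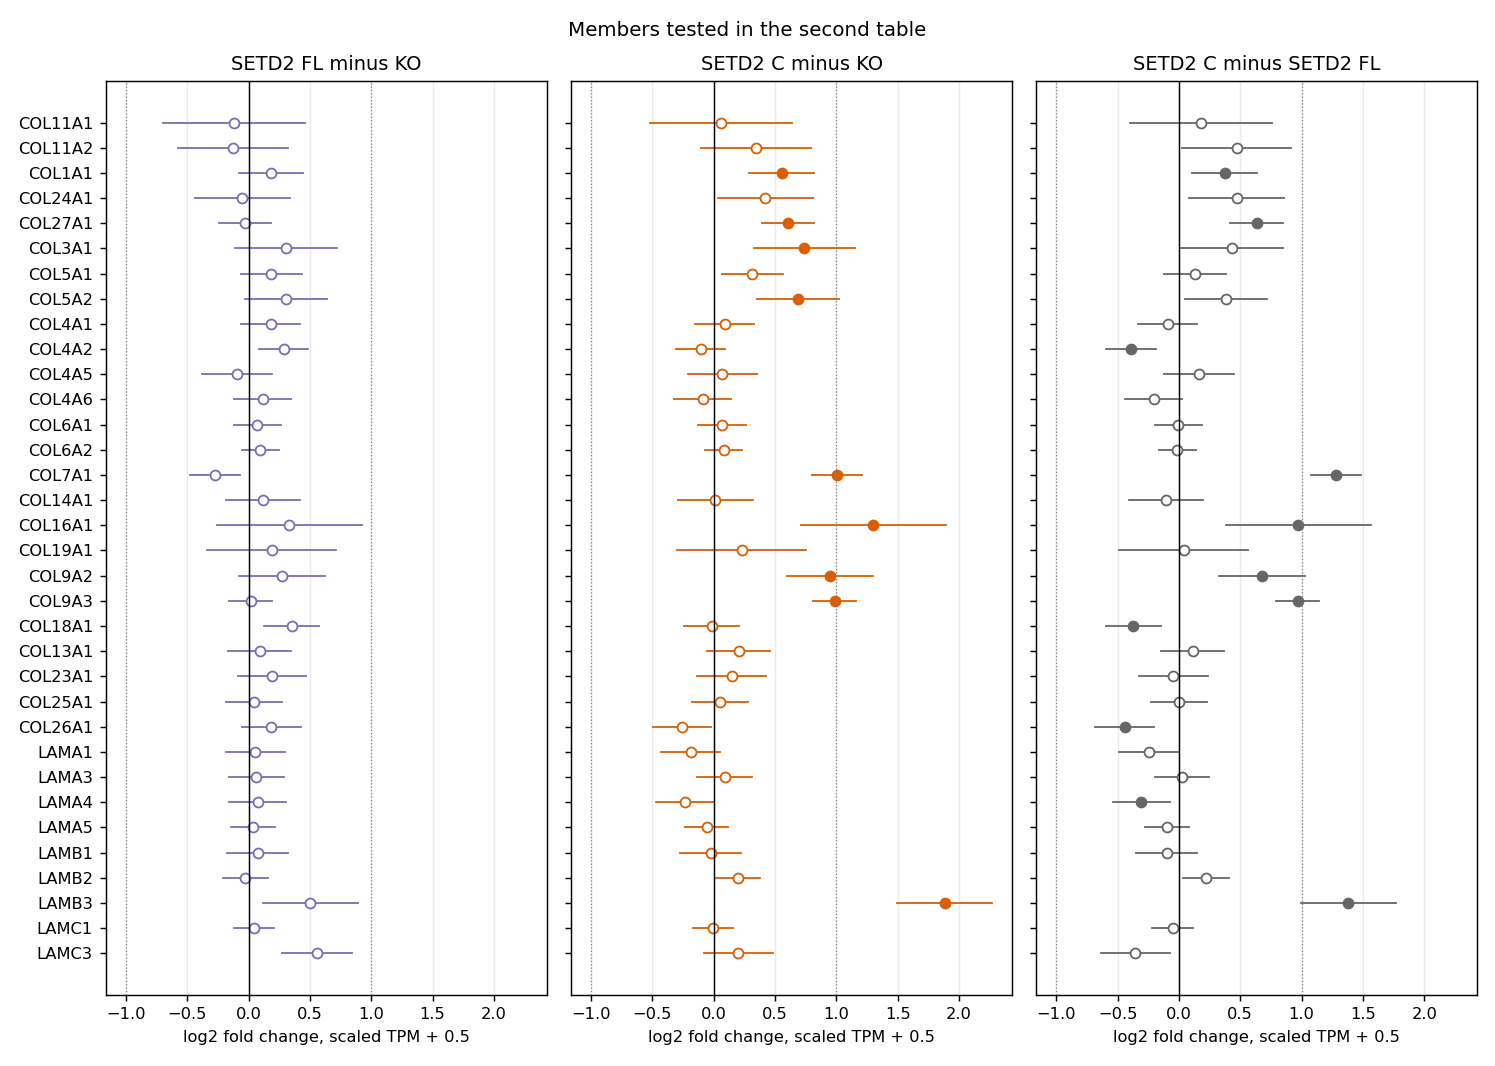
Log2 fold changes on the horizontal axis, with 95% intervals as bars, for members tested in the second table, in the order SETD2 FL minus KO, SETD2 C minus KO and SETD2 C minus SETD2 FL. Filled points have an adjusted p of at most 0.05, which are none, 9 and 11 in the 3 panels, and dotted lines mark a 2-fold change.

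Genes that modify and join collagen chains were described from lists of their own. Of 20 genes of chain modification and folding, 15 of the 19 tested were lower in KO than WT by sign, with a median of -0.21. The other 4 were higher, where 48.9% of all genes were. By the adjusted p alone 3 were lower, beside 3.17% of all genes. They were SERPINH1, the collagen chaperone HSP47 (-0.43, adjusted p = 0.0307 from limma), PLOD3 (-0.42) and P4HA1 (-0.41). With SETD2 FL 18 of 20 were above 0, beside 51.5% of all genes, and none passed the adjusted p. With SETD2 C 4 of 20 were higher and 2 lower by the adjusted p alone, beside 21.1% and 15.1% of all genes. Of these, 2 were called higher, beside 3.75%. PLOD2, the lysyl hydroxylase of collagen telopeptides, rose from 57.31 and 68.47 TPM in KO to 205 and 232 (log2 fold change 1.64, adjusted p = 6.53e-05 from limma), and P4HA1, a catalytic subunit of prolyl 4-hydroxylase, from 59.85 and 75.50 to 164 and 177 (1.19). P4HA2 (0.58) and PLOD1 (0.30) passed the adjusted p alone in the same direction, and P3H4 (-0.66) and CRTAP (-0.44) in the other. PPIB, P4HB and FKBP10, the most abundant of the list in that table, were not past it.

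Among 15 genes of procollagen cleavage and cross-linking, 12 of 14 tested were above 0 with SETD2 C, beside 55.4% of all genes, and by the adjusted p alone 7 were higher and 1, ADAMTS3 (-0.54), was lower, beside 21.1% and 15.1%. LOX, the lysyl oxidase that starts cross-links, was the only 1 of the 14 called higher, beside 3.75% of all genes, and none was called lower, beside 0.314%. LOX went from 9.50 and 10.80 TPM in KO to 57.90 and 68.02 where SETD2 C was expressed, against 11.53 and 9.74 under SETD2 FL (log2 fold change 2.43). LOXL1 (0.76), LOXL2 (0.34), LOXL3 (0.53) and TGM2 (0.88), a transglutaminase, were among those that passed the adjusted p alone. PCOLCE, an enhancer of procollagen cleavage, was lower in KO than WT by the adjusted p alone (-0.62, adjusted p = 0.0159 from limma). It was the only 1 of 13 tested to be so, beside 3.17% of all genes. The log2 fold changes of LOX and PLOD2 exceeded that of every collagen chain in the same comparison, a difference that was not tested.

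Of 10 tested partners of laminin and type IV collagen, 2 were lower and 1 higher with SETD2 C by the adjusted p alone, beside 15.1% and 21.1% of all genes. Past both limits 1 was called lower with SETD2 C and none higher, beside 0.314% and 3.75% of all genes. This was SMOC1, from 20.71 and 22.30 TPM in KO to 11.34 and 10.78 (log2 fold change -1.07, adjusted p = 0.000359 from limma). NID1, which links laminin to type IV collagen, was lower by the adjusted p alone, from 58.19 and 64.28 to 46.66 and 47.96 (-0.51). NPNT was higher by the adjusted p alone (0.32). Of 12 receptors tested none was called in any comparison. By the adjusted p alone 4 were higher and 2 lower with SETD2 C than in KO, beside 21.1% and 15.1% of all genes. In KO against WT 1 was lower, beside 3.17%. DDR2, a receptor of fibrillar collagen, was lower in KO than WT (11.55 and 13.71 against 7.43 and 7.38, -0.85, adjusted p = 0.00516) and lower with SETD2 C than in KO (-0.46), while DDR1 (0.54) and the laminin receptor subunits ITGA7 (0.74) and ITGB4 (0.72) were higher with SETD2 C, all by the adjusted p alone. Of the other matrix glycoproteins, SPARC, a collagen-binding protein, was called in all 4 comparisons, at -5.45 in KO against WT, 1.15 with SETD2 FL and 2.57 with SETD2 C against KO, and 1.41 between the constructs. FN1, fibronectin, rose with SETD2 C from 23.32 and 21.66 to 57.66 and 56.45 (1.18), LUM was called higher as well, and VCAN was lower by the adjusted p alone (-0.65).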

How the data were processed

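RNA was measured by RNA-seq in 10 HEK293T libraries, 4 in the first table (WT and KO) and 6 in the second (KO, SETD2 FL, SETD2 C), with 2 per group. Groups were taken from the sample titles. Per the study's methods the authors aligned reads to hg38 with Ensembl 96 gene models by STAR (2.6.1c) and computed TPM with RSEM (1.3.0), and the deposited TPM values are rounded to 2 decimals. Strand is not given in the sources used here, and TPM holds no depth. The ChIP-seq samples of the series were not analysed here.

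TPM was scaled within each table by the median ratio over genes with at least 1 TPM in every library and analysed as log2(scaled TPM + 0.5). Genes of at least 0.5 TPM in at least 2 libraries, protein-coding or lncRNA by GENCODE 44 (58472 of 58884 genes matched by identifier, 31 by symbol), were fitted with limma 3.58.1 in R 4.3.3 (trended empirical Bayes, two-sided), the 3 groups of the second table in one fit, and p-values were adjusted by Benjamini-Hochberg over all genes tested, 14746 and 15933. The count test of the study's methods could not be used on TPM. A call needed a 2-fold change or more and an adjusted p of 0.05 or less.

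In simulated data for KO against WT, 100 of 100 genes changed by 1.5 and 100 of 100 changed by 3 (log2) were recovered with 1 false call among 14746 genes; for SETD2 C against KO 98 of 100 and 100 of 100 were recovered with 2 false calls among 15933 genes. Named genes were SETD2, members past the adjusted p in any comparison, members with a mean of at least 5 TPM in either table, all laminins that passed the filter and, of each related list, the called, largest and most abundant genes. The members and lists were chosen with earlier results of these data known. Alternatives changed the pseudocount, filter, scaling, trend, gene types, limits and libraries; an adjustment for GC content and transcript length, and left-out libraries with the genes tested kept, were added after seeing the data. Promoter windows were taken from RefSeq (GRCh38.p14). Values of 1 member and 1 marker gene are not reported here, but both are in the counts and medians.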

Additional observations from a re-analysis of the deposited data

How the results depend on the processing

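The median for SETD2 C against SETD2 FL, 0.04, lay near 0 and changed sign: it was -0.03 when at least 1 TPM was required in every library, -0.05 without the SETD2 FL library of number 4 and -0.01 without the first SETD2 C library. The count of members called lower in KO than WT was 0, and 1 (COL2A1) with a pseudocount of 0.1 and when TPM was rescaled without mitochondrially encoded genes and SETD2, and 1 (COL18A1) by the adjusted p alone. The 3 members called higher with SETD2 C than in KO became 5 with a pseudocount of 0.1, 5 without scaling, 5 after adjustment for GC content and transcript length and 9 by the adjusted p alone. They became 1 with a pseudocount of 1 (LAMB3), 1 with quantile normalization (LAMB3) and 1 when at least 1 TPM was required in every library (COL7A1). Of SETD2 C against SETD2 FL, the 2 members called higher became 1 under that filter, 4 without scaling, 4 after the GC and length adjustment and 7 by the adjusted p alone, which also gave 4 lower.

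The median of the members in KO against WT was -0.074 when genes above 0 TPM in at least 2 libraries were tested and -0.15 without scaling. That of SETD2 C against KO was 0.27 without scaling, 0.044 with quantile normalization and 0.24 after the GC and length adjustment, and that of SETD2 C against SETD2 FL was 0.15 without scaling. Without scaling the median of all genes moved to 0.11, 0.18 and 0.16 in these comparisons. The cause of the other changes was not tested.

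With single libraries left out the called counts ranged from 1 to 4 for SETD2 C against KO and from 1 to 4 for SETD2 C against SETD2 FL, were 0 to 0 in the other directions and comparisons, and the medians ranged from -0.32 to -0.22 (KO against WT), 0.01 to 0.18 (SETD2 FL against KO), 0.06 to 0.20 (SETD2 C against KO) and -0.05 to 0.11 (SETD2 C against SETD2 FL). A group with 1 library left is assumed to vary like the others. COL16A1 and LAMB3 left the genes tested without either SETD2 C library.

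WT and KO of the first table share the replicate numbers 1 and 2, but nothing says that a number marks a shared culture. The deviations of the libraries numbered 1 correlated at 0.15 across 14746 genes. With the replicate block 0 members were called in either direction, the median was -0.28 and COL18A1 had an adjusted p of 0.0249 by limma. The groups of the second table share fewer than 2 numbers, so no block was fitted there. The 2 libraries in a group and the unknown depth limit the precision of all low genes.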
